A study of Mus musculus with 6 samples.

Results

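The genes described here act in meiosis and comprise Mnd1 in recombination, the meiotic cohesin subunits Rec8, Stag3 and Smc1b, the synaptonemal complex and chromosome axis genes Sycp1, Sycp2, Sycp3, Syce1 and Hormad1, and the meiotic regulator Meioc. They are 10 of the 18193 genes that have a probe set of their own on the array. Each is read by 1 probe set annotated to that gene alone, so 10 of 45037 probe sets were followed. They were chosen by name with their measured differences between cKO and WT on these arrays known, so those differences are given as a description and not as a test. The samples are dorsal telencephalon, the embryonic tissue that forms the cerebral cortex, taken at E14.5. The cKO group holds 3 arrays of embryos in which Setdb1, the gene of the histone-methylating enzyme ESET, was deleted with Emx2Cre, a Cre recombinase made where the dorsal forebrain gene Emx2 is active. The WT group holds 3 arrays of embryos labelled wild type, and whether they carried Cre is not stated in the labels. Both groups are labelled C57BL\6 and male, and each array held cRNA from 250 ng of total RNA.

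In meiosis, cohesin rings built with meiosis-specific subunits hold sister chromatids together and form the base of a protein axis. The synaptonemal complex then zips the axes of homologous chromosomes together while breaks in the DNA are repaired by recombination between them. These genes are normally active in germ cells and silent in most somatic tissues. In mouse embryonic stem cells, Setdb1 and the Polycomb complex PRC1.6, which contains E2F6 and the E-box binding pair MGA and MAX, are known to repress many germline genes.

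The arrays numbered 3 stood apart in both groups, and both carried Xist signal although labelled male. Xist, the transcript of the inactive X chromosome, read 8811 on cKO 3 and 17294 on WT 3, against 34.1 to 59.0 on the other 4 arrays. The Y-linked gene Eif2s3y read 961 on cKO 3 and 22.2 on WT 3, against 1927 to 2186 on the other 4 arrays. WT 3 thus read as female, while cKO 3 carried both Xist and an intermediate Y-linked signal. The summed intensity of 7 erythroid genes was 73879 on cKO 3 and 69283 on WT 3, against 11202 to 17153 on the other cKO arrays and 12488 to 16415 on the other WT arrays. A sum over 6 genes of meninges and mesenchyme was 2029 on cKO 3 and 265 to 613 on the other 5 arrays. The summed intensity of 9 dorsal telencephalon markers lay between 43881 and 52556 in cKO and between 47442 and 50739 in WT, a sum in which Neurod6 is the brightest gene. Of these 9 markers 0 were called. Neurog2 was higher in cKO without overlap, at a log2 fold change of 0.13 (SE 0.13). Of all probe sets, 7.47% were higher and 6.07% lower without overlap. By limma's unadjusted p under 0.05, 4.74% of all genes were higher and 3.8% lower. Lower in cKO without overlap and with an unadjusted p under 0.05 in limma were 3 markers. They were Emx2, the gene whose expression the Cre follows, at a log2 fold change of -0.83 (SE 0.15), Eomes, of intermediate progenitors, at -0.63 (SE 0.15) and Fezf2, of deep-layer neurons, at -0.54 (SE 0.17). Since the labels do not say whether WT embryos carried Cre, the Cre and the deletion cannot be told apart. This holds for Emx2 and for every other difference between cKO and WT given here. Of 8 ventral telencephalon markers 0 were called, while 2 were higher by unadjusted p, Gad1 at 0.48 (SE 0.17) and Nkx2-1 at 1.01 (SE 0.34), and 0 lower. The other probe set of Gad1 gave 0.30. Nkx2-1 was dim, at 34.2, 20.7 and 63.2 in cKO and 6.19, 5.94 and 20.4 in WT. These markers were named after their values were seen, and their part in the results below was not tested. Setdb1 read 704, 696 and 500 on the cKO arrays and 1162, 1185 and 1033 on the WT arrays on its brightest probe set, a log2 fold change of -0.83 (SE 0.18) that did not pass the threshold of 0.05 used here (limma over all probe sets, adjusted p = 0.237). Its other probe sets were dim, averaging 33.5 and 22.8 in cKO and 51.5 and 67.2 in WT. The labels do not say which exons were deleted, so the probe sets may lie outside the deleted part.

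The start regions of the members that rose past the threshold, described below, are shown with that of Hormad1, which did not pass it. They are shown because E2F motifs and E-boxes are the letters that members of PRC1.6 bind. Sequences are from RefSeq on GRCm38.p6 and run 5′ to 3′ from 250 bases before to 10 bases after the annotated start. Capitals mark the E2F motif GCGGGA or its reverse complement TCCCGC, and the E-box CACGTG.
Mnd1, chr3:84155777-84156036, minus strand: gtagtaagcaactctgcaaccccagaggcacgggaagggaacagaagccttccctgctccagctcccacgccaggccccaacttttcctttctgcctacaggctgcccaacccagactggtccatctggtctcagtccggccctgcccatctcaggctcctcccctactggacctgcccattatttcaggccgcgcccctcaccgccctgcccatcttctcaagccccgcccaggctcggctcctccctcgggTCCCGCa
Rec8, chr14:55617916-55618175, plus strand: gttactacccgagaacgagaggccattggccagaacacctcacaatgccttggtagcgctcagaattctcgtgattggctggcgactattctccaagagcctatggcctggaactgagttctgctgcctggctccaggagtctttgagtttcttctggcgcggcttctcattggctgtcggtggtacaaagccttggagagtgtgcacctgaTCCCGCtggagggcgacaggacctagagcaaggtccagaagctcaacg
Stag3, chr5:138280259-138280518, plus strand: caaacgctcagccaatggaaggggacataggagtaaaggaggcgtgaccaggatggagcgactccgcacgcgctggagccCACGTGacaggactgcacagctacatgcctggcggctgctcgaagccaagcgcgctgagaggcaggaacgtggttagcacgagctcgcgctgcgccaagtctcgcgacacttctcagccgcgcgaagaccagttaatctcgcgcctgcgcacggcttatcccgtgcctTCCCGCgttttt
Sycp3, chr10:88459337-88459596, plus strand: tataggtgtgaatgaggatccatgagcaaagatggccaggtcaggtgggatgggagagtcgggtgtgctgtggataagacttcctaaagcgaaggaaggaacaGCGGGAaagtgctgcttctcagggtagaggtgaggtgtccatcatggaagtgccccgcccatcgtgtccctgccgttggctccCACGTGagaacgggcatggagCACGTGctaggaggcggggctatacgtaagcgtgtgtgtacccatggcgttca
Meioc, chr11:102665335-102665594, plus strand: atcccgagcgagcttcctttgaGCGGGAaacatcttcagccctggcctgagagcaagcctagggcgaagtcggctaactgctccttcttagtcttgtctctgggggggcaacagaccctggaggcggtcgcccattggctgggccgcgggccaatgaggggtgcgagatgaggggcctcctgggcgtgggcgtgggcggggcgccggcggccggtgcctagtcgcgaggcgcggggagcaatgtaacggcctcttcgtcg
Hormad1, chr3:95559427-95559686, plus strand: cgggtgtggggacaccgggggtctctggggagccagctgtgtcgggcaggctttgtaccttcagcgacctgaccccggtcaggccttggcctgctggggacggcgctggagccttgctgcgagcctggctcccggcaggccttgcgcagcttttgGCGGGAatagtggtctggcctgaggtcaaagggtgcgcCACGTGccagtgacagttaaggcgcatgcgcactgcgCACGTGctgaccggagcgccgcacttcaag
Counted over the whole window of 250 bases before to 50 after the start, all 5 members that rose held 1 E2F motif, as did Sycp1, Smc1b and Hormad1 among the other 5. The E2F motif was found, on either strand, in 20.0% of all 32851 promoter windows and in 40.3% of the 14281 windows with at least 10 CpG dinucleotides, the lowest number in any member. An E-box was present in Stag3, Sycp3, Sycp1 and Hormad1, and in 7.15% of all windows or 10.9% of those with at least 10 CpG. Sycp3 and Hormad1 each held 2 E-boxes, which began 64 and 43 bases before the start of Sycp3 and 57 and 20 bases before that of Hormad1. No E2F motif overlapped an E-box. Members held 10 to 30 CpG dinucleotides per window, and the median of all windows was 7. Both motifs thus occurred among members that rose past the threshold and among members that did not pass it.

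On the scale of deposited intensities, which the authors brought to a common level on every array, 5 of the 10 genes were far above their WT level in cKO cortex. These were Mnd1, Rec8, Stag3, Sycp3 and Meioc. Their lowest cKO reading, 163 for Sycp3, lay above their highest WT reading, 91.7 for Stag3. The other 5 genes stayed between 2.59 and 69.1 in cKO and between 1.63 and 28.1 in WT. Apart from Syce1 in cKO they stayed at or under 28.1, where the lower quartile of the arrays ran from 22.4 to 31.0. In bulk tissue, more cells with a transcript and more transcript per cell cannot be told apart.

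**Figure D1:**
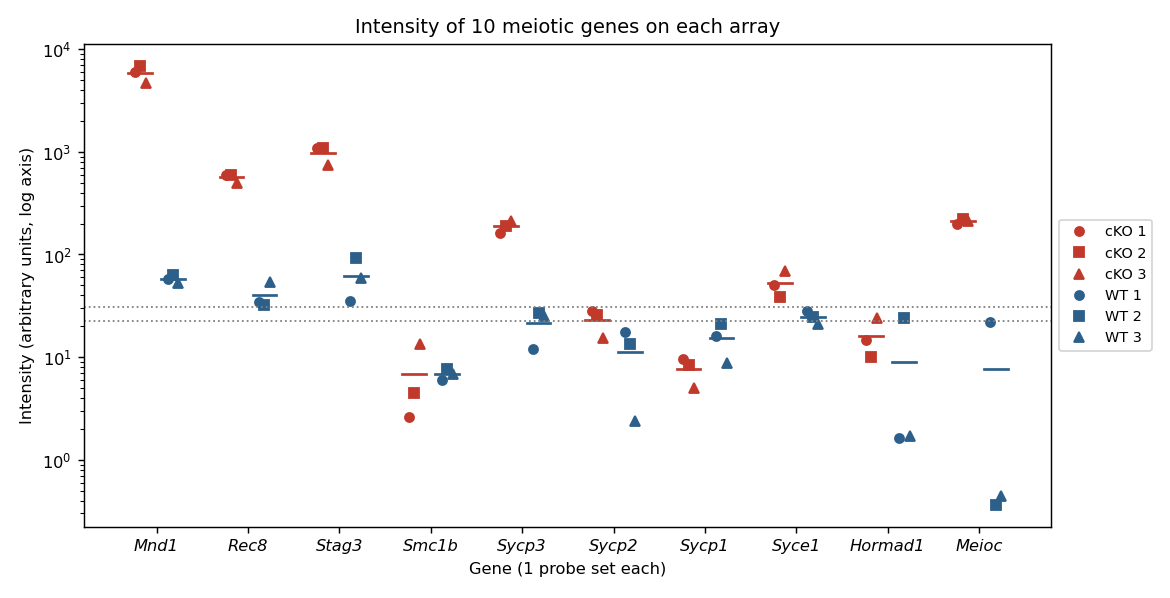
Intensity (log axis) of each of the 10 genes on 3 cKO arrays (red, left) and 3 WT arrays (blue, right), where marker shape gives the array number, short lines the group means and dotted lines the lowest and highest lower quartile of the arrays. Mnd1, Rec8, Stag3, Sycp3 and Meioc lie at 163 or more on every cKO array and at 91.7 or less on every WT array.

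Mnd1 forms a complex with the product of Psmc3ip, known as Hop2, that helps recombinases invade a homologous chromosome. It read 5933, 6868 and 4660 on the cKO arrays and 58.2, 63.8 and 52.6 on the WT arrays. Even the lowest cKO array was 73.0 times the highest WT array. The difference of means on the log2(intensity + 16) scale, used for every log2 fold change here, was 6.28 (SE 0.19), the third largest of all probe sets. On the cKO arrays Mnd1 stood above at least 96.9% of probe sets, and on the WT arrays above at most 44.0%. Its partner Psmc3ip, which dividing somatic cells also express, had a log2 fold change of -0.01 (SE 0.15).

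Among the meiotic cohesin subunits, Rec8, the kleisin that closes the ring in meiosis, read 598, 594 and 501 in cKO and 34.5, 32.6 and 54.4 in WT, with a log2 fold change of 3.38 (SE 0.19). Stag3, the meiotic partner of the kleisin, read 1101, 1089 and 744 in cKO and 35.0, 91.7 and 59.1 in WT, with a log2 fold change of 3.72 (SE 0.31). For both, cKO 3 was the lowest of the cKO arrays, and the groups were far apart. Smc1b, the meiotic form of the ring subunit Smc1a, read 2.59, 4.50 and 13.4 in cKO and 6.04, 7.67 and 6.92 in WT. Its log2 fold change was -0.03 (SE 0.20), and all 6 values were below 16. The groups of Smc1b overlapped, and its sign changed when cKO 1 or cKO 2 was left out.

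The somatic subunits of the same ring were bright and showed no such difference. Smc1a, Smc3, Rad21, Stag1 and Stag2 had log2 fold changes of -0.09 (SE 0.15), -0.09 (SE 0.14), 0.27 (SE 0.17), -0.03 (SE 0.14) and -0.02 (SE 0.14). Rad21, the somatic kleisin, read 5890, 7700 and 7715 in cKO and 6527, 5395 and 5709 in WT, and its groups overlapped.

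Of the 5 axis and synaptonemal complex genes among the 10, Sycp3 passed the threshold across all probe sets and the other 4 did not. Sycp3, a filament protein of the axis, read 163, 188 and 212 in cKO and 12.1, 27.1 and 24.9 in WT, with a log2 fold change of 2.46 (SE 0.21). Its WT values lie around the constant of 16, and the fold change was 3.14 with a constant of 1, where the call was lost, and 1.56 with a constant of 64. Its axis partner Sycp2 read 27.9, 25.6 and 15.3 in cKO and 17.6, 13.4 and 2.39 in WT, with a log2 fold change of 0.55 (SE 0.27) with overlapping groups. Sycp1, the transverse filament that joins the axes, read 9.67, 8.36 and 4.98 in cKO and 16.2, 20.8 and 8.86 in WT, with a log2 fold change of -0.39 (SE 0.19), also with overlap. On the cKO arrays Sycp3 was thus well above the dim range, while its partner Sycp2 and the filament Sycp1 were within it.

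Syce1, a central element protein, read 50.4, 38.9 and 69.1 in cKO and 28.1, 24.6 and 21.0 in WT, so the groups did not overlap. Its log2 fold change of 0.74 (SE 0.20) did not pass the threshold. Hormad1, an axis protein that recruits the machinery for breaks, read 14.6, 9.93 and 24.1 in cKO and 1.63, 23.9 and 1.69 in WT, with a log2 fold change of 0.45 (SE 0.36). Its WT 2 value lay among the cKO values. These dim readings bound what the array could resolve for the 5 genes and do not show that their transcripts were absent.

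Meioc binds the RNA helicase encoded by Ythdc2 and is needed for germ cells to carry on with meiosis. It read 199, 220 and 212 in cKO and 22.1, 0.364 and 0.444 in WT, with a log2 fold change of 3.38 (SE 0.34). Its coefficient of variation over the cKO arrays was 5.16%, the smallest of the 10 genes. The WT values differed mainly between WT 1, which lay near the constant of 16, and the others. WT 2 and WT 3 were at the floor, above only 0.095% and 0.142% of the probe sets of their arrays. The constant thus sets the size of the fold change, which was 1.95 with a constant of 64. With a constant of 1 it was 5.89, and the call was lost (limma adjusted p = 0.252). Ythdc2 itself had a log2 fold change of 0.02 (SE 0.16).

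Across the 10 genes, 5 were called higher and 0 lower in cKO at an adjusted p under 0.05 in limma's fit, where 0.224% of the 45037 probe sets were called higher and 0.0511% lower. Groups did not overlap for 6 of the 10 with cKO higher and for 0 with cKO lower, against 7.47% and 6.07% of all probe sets. Since this contrast chose the genes, these shares only describe them. The median log2 fold change was 1.602 over the 10 genes and 0.02 over all probe sets. Among the 5 genes that rose the highest cKO array was cKO 1 for Rec8 and Stag3, cKO 2 for Mnd1 and Meioc and cKO 3 for Sycp3, so no array led throughout. Their coefficients of variation in cKO ran from 5.16% to 20.7%.

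The differences were also present without the arrays numbered 3. On the other 4 arrays, the log2 fold changes were 6.38 for Mnd1, 3.63 for Rec8, 3.91 for Stag3, 2.46 for Sycp3 and 3.17 for Meioc. Between cKO 3 and WT 3 alone they were 6.09, 2.88, 3.34, 2.48 and 3.80. With 2 arrays per group only Mnd1 passed the threshold, in a fit that called 0.0178% of probe sets higher. Leaving out 1 array at a time kept Mnd1 and Rec8 past the threshold in 6 of 6 fits, Stag3 in 2, Meioc in 1 and Sycp3 in 0.

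**Figure D2:**
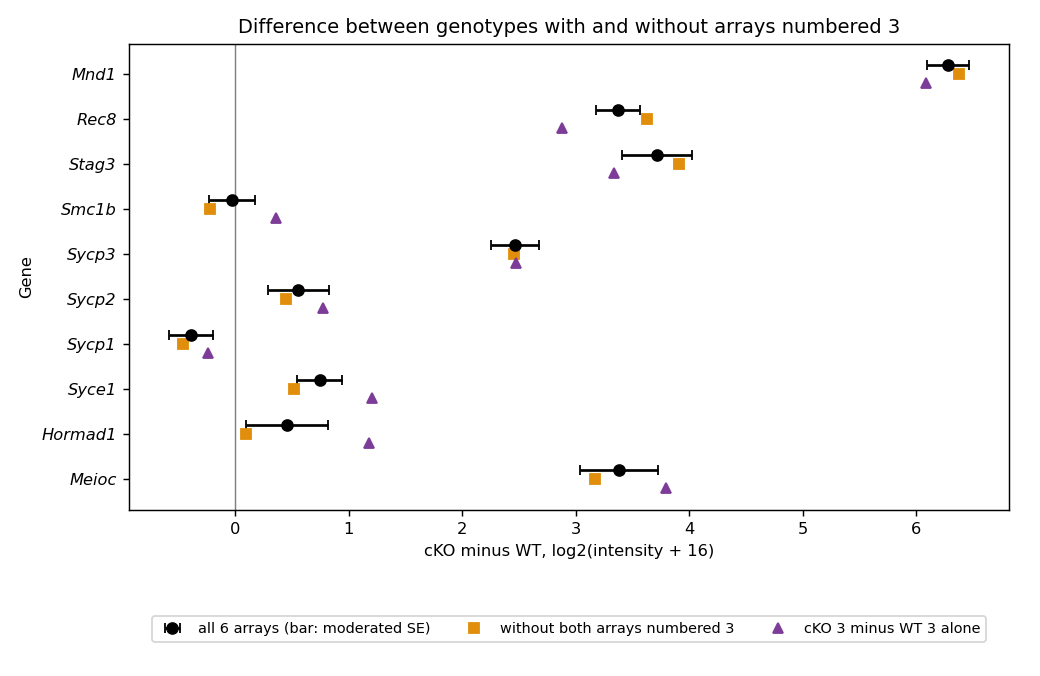
Difference between cKO and WT on the log2(intensity + 16) scale (horizontal axis) for each gene with all 6 arrays (black, with the moderated SE), without both arrays numbered 3 (orange) and for cKO 3 minus WT 3 (purple). The 5 genes that rose stay above 2 in all of these, from 2.46 for Sycp3 without the arrays numbered 3 to 6.38 for Mnd1.

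Other genes of the pathway were read from 6 lists with 64 measured genes, each by its brightest probe set. Past the threshold 2 rose, Dmc1 and Six6os1, and 0 fell, where 0.291% of all 18193 genes were called higher and 0.0824% lower by the same fit. At an unadjusted p under 0.05, 8 of the 64 were higher and 3 lower, against 4.74% and 3.8% of all genes. Groups did not overlap for 11 of the 64 with cKO higher and for 6 with cKO lower, against 7.47% and 6.07% of all probe sets. That base holds every probe set, while the 64 genes are read by 1 each. The higher ones were Mei4, Dmc1, Syce2, Six6os1, Esco1, Sun1, Dazl, Rbm46, Mybl1, Dmrt1 and Mga. The lower ones were Brca2, Hormad2, Pds5b, Cdca5, Tfdp1 and Yaf2. The median log2 fold change was 0.07 over the 64 genes and 0.01 over all genes.

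Dmc1, the meiotic recombinase that Hop2 and Mnd1 assist, read 240, 226 and 225 in cKO and 75.0, 53.0 and 71.4 in WT, with a log2 fold change of 1.59 (SE 0.16, limma adjusted p = 0.0246). Its other probe set rose as well, by 1.43 (SE 0.15, adjusted p = 0.0274), and the groups did not overlap on either. Six6os1, which the array annotation lists as 4930447C04Rik, encodes a central element protein of the synaptonemal complex. It read 242, 207 and 324 in cKO and 32.2, 29.9 and 31.4 in WT, with a log2 fold change of 2.51 (SE 0.19, limma adjusted p = 0.00868). Both further probe sets of Six6os1 rose, by 3.46 (SE 0.41, adjusted p = 0.0428) and 2.13 (SE 0.21, adjusted p = 0.0236). Without the arrays numbered 3 the brightest probe sets gave 1.65 for Dmc1 and 2.35 for Six6os1, short of the threshold (adjusted p = 0.274 and 0.177). Dmc1 lost its call in each fit that left out 1 array (adjusted p from 0.0840 to 0.151), and Six6os1 kept it in 2 of 6 such fits, without cKO 2 (adjusted p = 0.0388) and without cKO 3 (adjusted p = 0.0273).

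**Figure D3:**
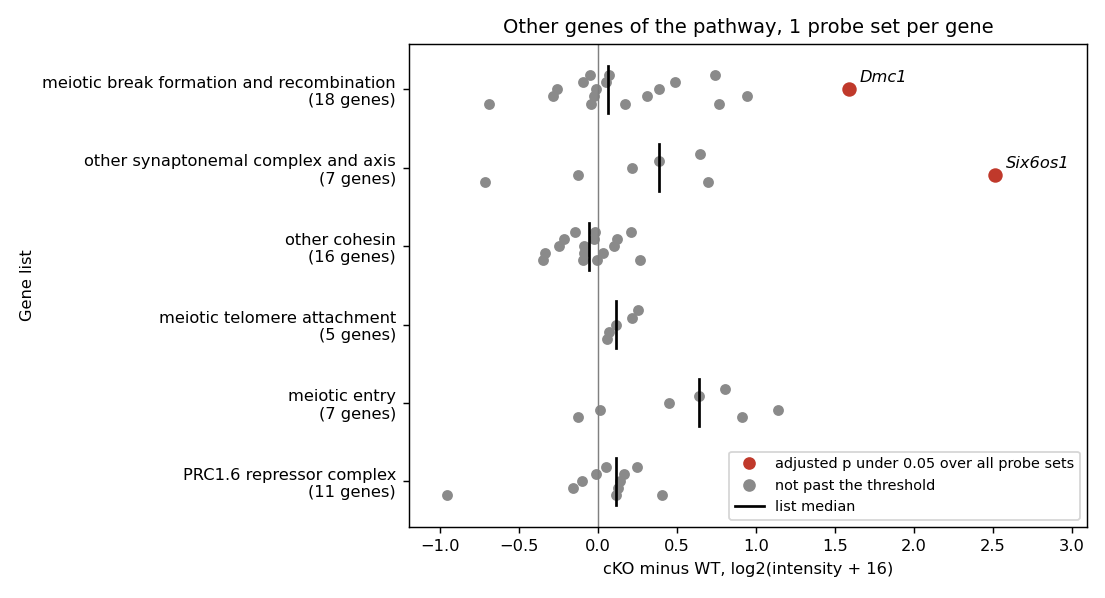
Difference between cKO and WT on the log2(intensity + 16) scale (horizontal axis) for the other genes of 6 lists, 1 point per gene, with the list medians as black lines. Dmc1 at 1.59 and Six6os1 at 2.51 are the points past the threshold over all probe sets.

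Of 18 genes of break formation and recombination, Dmc1 rose and 0 fell, with a list median of 0.06. Mei4, needed for break formation, was at 0.94 (SE 0.30, adjusted p = 0.475) and Brca2, a recombinase loader of somatic and germ cells, at -0.28 (SE 0.14, adjusted p = 0.718). Spo11, which cuts the DNA, was at 0.07 and read 29.1, 35.3 and 37.7 in cKO and 42.7, 16.2 and 40.8 in WT. It was named after its values were seen. The recombinase and its helper thus rose in cKO, while Spo11 read near the lower quartile of the arrays in both genotypes.

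Of 7 further synaptonemal complex and axis genes, Six6os1 rose and 0 fell, with a list median of 0.39. Syce2, another central element protein, read 4767, 4752 and 4951 in cKO and 2554, 3105 and 3281 in WT. Its log2 fold change of 0.70 (SE 0.15) did not pass (adjusted p = 0.232), although the groups did not overlap, and it was called with eBayes trend and robust (adjusted p = 0.0408). Hormad2, a paralogue of Hormad1, was at -0.72 (SE 0.27, adjusted p = 0.569). It read 2.73, 2.22 and 5.11 in cKO and 31.6, 10.3 and 9.54 in WT, lower in cKO without overlap but in the dim range.

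In the list of 16 other cohesin genes 0 were called, 1 gene was lower and 0 were higher by limma's unadjusted p under 0.05, and the median was -0.06. Members with the smallest p were Pds5b, a regulator of cohesin release, at -0.34 (SE 0.13), Cdca5, known as sororin, at -0.35 (SE 0.15) and Sgo2a, a shugoshin that guards centromeric cohesin, at -0.25 (SE 0.15). In the list of 5 telomere attachment genes 0 were called and 0 had an unadjusted p under 0.05. Sun1, of the nuclear envelope, was at 0.22, and the meiotic telomere proteins Terb1 and Terb2 were at 0.25 and 0.11, all short of the threshold.

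The meiotic entry list had the highest median, 0.64 over 7 genes, and 0 called genes. By limma's unadjusted p under 0.05, 4 were higher and 0 lower, against 4.74% and 3.8% of all genes. The 4 were Dazl, Rbm46, Mybl1 and Dmrt1. Dazl, an RNA-binding protein that licenses germ cells, read 47.6, 65.7 and 60.2 in cKO and 23.2, 16.1 and 31.1 in WT, with a log2 fold change of 0.91 (SE 0.20, limma adjusted p = 0.227). Its other, dimmer probe set was at 0.66 (SE 0.40, limma adjusted p = 0.822) with overlapping groups. Rbm46, an RNA-binding partner of Meioc and Ythdc2, was at 1.14 (SE 0.27, adjusted p = 0.265), and its other probe set at 1.81 (SE 0.25, adjusted p = 0.0642). Mybl1, a transcription factor of meiotic genes in the testis, was at 0.45 (SE 0.15, adjusted p = 0.501). Dmrt1 was dim, at 28.1, 26.5 and 35.7 in cKO and 4.70, 4.70 and 26.4 in WT. Its log2 fold change was 0.81 (SE 0.31, limma adjusted p = 0.583). Stra8, the retinoic acid target that starts meiosis, was at 0.64 (SE 0.38) with overlapping groups. Dmrt1 and Stra8 are named after their values were seen.

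Of 11 PRC1.6 genes 0 were called, 1 gene was lower and 0 were higher by limma's unadjusted p under 0.05, and the median was 0.12. Yaf2, a subunit that links the complex, read 1442, 1303 and 1387 in cKO and 2453, 2764 and 2847 in WT, with a log2 fold change of -0.95 (SE 0.14, limma adjusted p = 0.0817). Another probe set of Yaf2 gave -0.08 (SE 0.15), so its probe sets disagree. Mga was at 0.40 (SE 0.17), and its 5 probe sets ran from -0.10 to 1.11, with 0 called. Tfdp1, the dimer partner of E2F proteins, was at -0.16 (SE 0.13).

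Markers of primordial germ cells, which are not part of the dissected tissue, were read on the same arrays. The summed intensity of 7 primordial germ cell markers lay between 232 and 273 in cKO and between 132 and 258 in WT, and 0 of 7 were called, with 1 higher and 0 lower by limma's unadjusted p under 0.05. No marker was listed at 0. The brightest single value was Utf1 on WT 2, at 93.4, above that array's median of 91.1, and Dnd1 read 55.7, 76.3 and 64.5 in cKO and 44.5, 59.9 and 78.0 in WT. Pou5f1, the pluripotency factor Oct4, read 13.7, 1.94 and 28.2 in cKO and 1.84, 4.04 and 41.5 in WT, and Nanog read 12.2, 2.36 and 22.5 in cKO and 4.41, 14.3 and 27.0 in WT. Within each group both were highest on the array numbered 3, and the groups overlapped for Utf1, Dnd1, Pou5f1 and Nanog. Dazl, given above, is the marker of this list whose groups did not overlap on its brightest probe set, while they overlapped on its other probe set.

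The nearest measured protein-coding gene on each side of each member, by the order of genes in RefSeq, was looked up after the members' values were seen. Of these 20 neighbours 0 were called, while 2 had an unadjusted p under 0.05 in limma, against 4.57% of all probe sets higher and 3.33% lower, or 7.9% in all. Their log2 fold changes ran from -0.36 to 0.42. The 10 neighbours of the genes that rose lay between -0.26 and 0.26. Mnd1 lies between Tmem131l at -0.13 (SE 0.16) and Trim2 at -0.26 (SE 0.18), and Rec8 between Irf9 at 0.15 (SE 0.14) and Ipo4 at 0.05 (SE 0.19). Chpt1, whose annotated span overlaps that of Sycp3, read 126, 179 and 199 in cKO and 168, 155 and 166 in WT, with a log2 fold change of 0.02 (SE 0.19). The neighbours of the genes that rose thus showed differences far smaller than those of the genes that rose. Since this contrast chose the members, that comparison is a description and not a test.

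**Figure D4:**
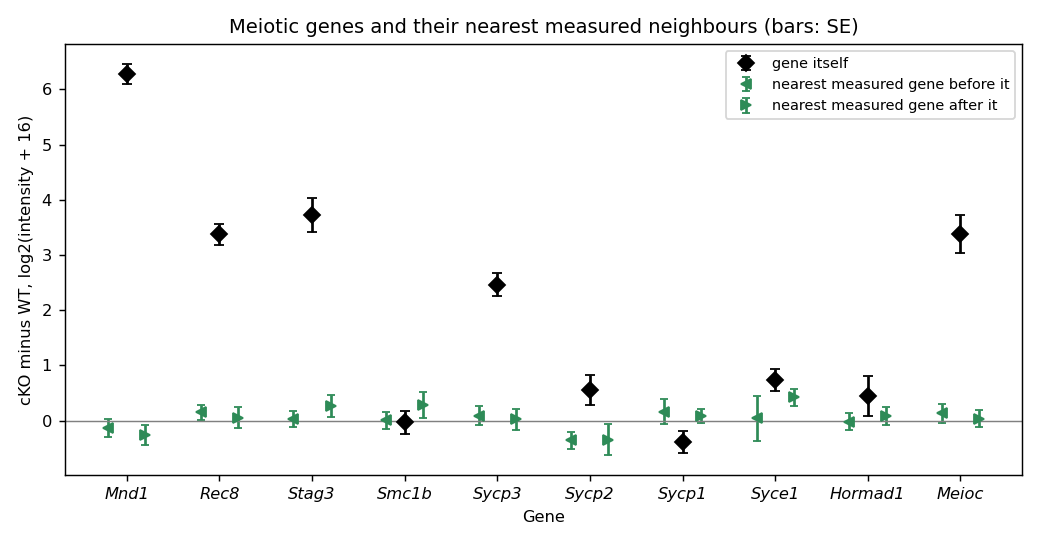
Difference between cKO and WT on the log2(intensity + 16) scale (vertical axis, bars are the moderated SE) for each of the 10 genes (black) and for the nearest measured gene before and after it (green). The 20 neighbours lie between -0.36 and 0.42, while Mnd1 lies at 6.28.

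Outside the members, the profiles most like the median profile of the 10 genes over the 6 arrays, by Pearson's r, were those of Dhtkd1, Colq and Ldb3, at 0.992, 0.991 and 0.989. The 6 arrays share the split by genotype, so these values largely describe that split. Colq, a collagen tail of acetylcholinesterase, read 46.7, 42.0 and 55.5 in cKO and 9.94, 7.50 and 6.42 in WT. Ldb3, a muscle Z-disc protein, read 201, 234 and 255 in cKO and 73.4, 70.0 and 65.4 in WT. Dhtkd1, a mitochondrial dehydrogenase subunit, read 323, 314 and 338 in cKO and 238, 232 and 229 in WT.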

How the data were processed

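Transcript levels in dorsal telencephalon were read from 6 Affymetrix arrays, 1 colour each. The deposited values are intensities on a linear scale, 1 per probe set and array, made by the authors with the Affymetrix Expression Console, per the submitters' processing notes. The version, the summary algorithm and detection calls were not stated in the sources used here. Trimmed means (2% at each end) lay between 497.2 and 497.7, so the arrays carry a common scaling, and none was added. Intensities were taken to log2(intensity + 16). All 45037 probe sets were fitted on genotype alone with limma 3.58.1 in R 4.3.3 (lmFit, eBayes), with Benjamini-Hochberg adjustment over all of them and a threshold of 0.05. The fit was checked on simulated arrays. The number of arrays limits the precision. SE is the moderated standard error. P-values measure the spread between 3 arrays per group, read as separate embryos from the design text. For cKO 3, which carried both Xist and Y-linked signal, whether its RNA came from a single embryo was not tested.

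The annotation gave 1 gene to 34945 probe sets, several to 932 and none to 9160. A gene of a list was read by its brightest probe set. Of 76 pathway genes written, 64 were measured, and the others were not analysed here. Members, lists and alternatives were chosen with earlier results of these data known. Named genes are all members, Setdb1, list genes past the threshold, up to 3 per list by smallest p, the somatic cohesin subunits and the 3 most similar profiles, except where said otherwise. The meninges and mesenchyme list of 6 measured genes and the erythroid list of 7 had 0 called genes, with 0 and 1 higher by unadjusted p. Deviations from the group means correlated at 0.08, 0.19 and 0.41 between the arrays numbered 1, 2 and 3. Between arrays of other numbers they ran from -0.31 to 0.16, and each value with an array numbered 3 was negative. The main fit did not treat the numbers as pairs. Fits with a replicate block and with the arrays numbered 3 as a block are given below.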

Additional observations from a re-analysis of the deposited data

How the results depend on the processing

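Mnd1, Rec8, Stag3, Sycp3, Meioc, Dmc1 and Six6os1 stayed higher in cKO under every alternative that could be computed for them. Leaving out dim probe sets removed Sycp3, Meioc and Six6os1 from the fit. Calls depended on the setting.  The members called higher, 5 in the report, numbered 2 with a constant of 1, 3 with dim probe sets left out, 1 with the replicate block, 1 without both arrays numbered 3, 4 with the arrays numbered 3 as a block, where Meioc lost its call (adjusted p = 0.0573), and 2 to 3 when leaving out 1 array. The other pathway genes called higher, 2 in the report, numbered 1 with a constant of 1, 1 with dim probe sets left out, 0 with the replicate block, 0 without both arrays numbered 3, 3 with eBayes trend and robust, where Syce2 was added, and 0 to 1 when leaving out 1 array. Those called lower, 0 in the report, numbered 1 with a constant of 64, with dim probe sets left out, with eBayes trend and robust and in the gene table, each time Yaf2. Over all probe sets, 101 were higher and 23 lower in the report. The counts were 41 and 7 with a constant of 1, 166 and 86 with dim probe sets left out, 174 and 83 with eBayes trend and robust, 7 and 0 with the replicate block, and 8 and 0 without both arrays numbered 3. Those lower numbered 41 with centred arrays, 56 with a constant of 64 and 44 in the gene table of 1 probe set per gene. Leaving out 1 array gave 19 to 34 higher and 0 to 2 lower. Fits on fewer arrays have less power, and the block spends degrees of freedom. What caused the shifts in calls was not tested for any setting. The log2 fold changes that changed sign were all short of the threshold. Without both arrays numbered 3, Stag2 was at 0.0064 and Terb2 at -0.0034. Leaving out 1 array gave -0.076 to 0.047 for Stag1, -0.065 to 0.046 for Stag2, -0.060 to 0.43 for Terb1 and -0.14 to 0.31 for Terb2. Among the members Smc1b changed sign, with -0.23 to 0.10. The median of the break formation and recombination list, 0.06, was at -0.04 with dim probe sets left out and -0.02 without WT 2. Neighbouring genes had 0 calls under all 16 alternatives, which were chosen after seeing the data. Most WT values lie in the dim range, where array background limits what can be told apart.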
